A study of Mus musculus with 12 samples.

Results

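Hox genes encode the homeodomain transcription factors that lay down position along the body axis, and they were examined here in cells sorted from mouse lung for Pdgfra (CD140a), the receptor that marks mesenchymal cells. The members were all rows annotated as protein coding and named Hoxa, Hoxb, Hoxc or Hoxd with a number, which gave 36 of the 40760 genes counted. Bulk RNA-seq covered 12 libraries from male lung in 4 groups of 3, 2 genotypes each given vehicle or bleo and named by genotype and treatment (*WT* vehicle, for example). Mice of either genotype were on a C57BL/6 background and young adults unless stated otherwise. *Pear1*-/- mice carry, in all cells, a knockout-first allele in which a cassette between coding exons traps the *Pear1* transcript. Bleo is bleomycin, a drug that injures the lung and leads to fibrosis, given as an aerosol into the trachea. The dose and day of the sorted libraries, and the number of mice behind each of them, were not stated, so the p-values measure the spread between libraries, which may be technical.

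Mammalian Hox genes lie in clusters, and genes at the same place in different clusters form paralog groups that share ancestry and much of their sequence. Anterior members sit at one end of a cluster and act toward the head, posterior members sit at the other end and act toward the tail and in the limbs, and the members expressed in an adult fibroblast are thought to record where in the body that cell arose. In the lung, the paralogs *Hoxa5* and *Hoxb5* are known to act in the mesenchyme, where *Hoxa5* is needed for normal airway and alveolar development and *Hoxb5* for branching. Hox proteins bind DNA together with the TALE homeodomain proteins Pbx, Meis and Pknox (Prep), while Polycomb proteins keep Hox clusters silent and Trithorax proteins keep them active.

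*Hoxa5* (ENSMUSG00000038253) and *Hoxb5* (ENSMUSG00000038700), paralogs of group 5, held the most counts in their clusters. *Hoxa5* occupies chr6:52201754-52204587 on the minus strand of GRCm38 and *Hoxb5* chr11:96303336-96306121 on the plus strand. Over all pairs of the 15 members with enough counts to be tested, the longest exact run shared by transcripts of 2 genes was 52 bases, between *Hoxa6* and *Hoxb4*, which is shorter than the sequenced reads.

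The 250 bases before the annotated start are printed for *Hoxa5*, the most abundant member, which fell after bleo, and for *Hoxb8*, whose counts were highest in *Pear1*-/- bleo. Both are from RefSeq on GRCm38.p6, in neither case within an annotated exon, on the minus strand at chr6:52204588-52204837 for *Hoxa5* and on the plus strand at chr11:96281655-96281904 for *Hoxb8*. Capitals mark matches on either strand to TGATNNAT, a motif bound by Hox and Pbx pairs, to TGACAG, a motif bound by Meis, and to CCAAT, the box bound by NF-Y.
Hoxa5: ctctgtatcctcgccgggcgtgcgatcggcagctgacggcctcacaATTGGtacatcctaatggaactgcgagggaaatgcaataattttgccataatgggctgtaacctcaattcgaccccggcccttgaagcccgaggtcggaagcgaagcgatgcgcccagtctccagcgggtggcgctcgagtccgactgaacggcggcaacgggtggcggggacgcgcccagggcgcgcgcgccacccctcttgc
Hoxb8: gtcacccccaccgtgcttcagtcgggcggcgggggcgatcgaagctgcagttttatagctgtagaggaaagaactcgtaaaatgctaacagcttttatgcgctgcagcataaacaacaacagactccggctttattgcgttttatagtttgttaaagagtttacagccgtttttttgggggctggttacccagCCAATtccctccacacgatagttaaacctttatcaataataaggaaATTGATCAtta
*Hoxa5* holds CCAAT once, on the opposite strand, and *Hoxb8* holds CCAAT once and TGATNNAT once. None of the marked matches overlap. Windows were found for 8 of the 15 tested members, of which 2 held TGATNNAT, 2 held TGACAG and 4 held CCAAT. Of all 32851 windows in the table, 7.68%, 15.9% and 33.8% held these motifs. The ratio of observed to expected CpG dinucleotides had a median of 0.723 over the 8 windows and of 0.373 over all windows, and was 1.11 for *Hoxa5* and 0.974 for *Hoxb8*.

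Total counts ranged from 6702948 to 10447101 per library. *WT* vehicle replicate 2 stood apart from its group. Chi-square values comparing the gene counts of a pair of libraries, divided by their degrees of freedom, come to 1 where sampling is the only source of difference. *WT* vehicle replicates 1 and 3 gave 1.58, replicate 2 gave 21.2 against the first and 21.8 against the third, and replicate 2 gave 1.73, 2.13 and 2.67 against the *Pear1*-/- vehicle libraries. Within *Pear1*-/- vehicle, replicates 1 and 2 gave 1.44, and replicate 3 gave 4.31 and 4.82 against them, and pairs within the bleo groups gave 1.35 to 1.49. *Pear1* did not check the labels, since its log2 fold change between the vehicle groups was -0.08 ± 0.07 (SE, adjusted p = 0.47) and between the bleo groups 0.48 ± 0.08, higher in the libraries labelled *Pear1*-/-. Genotype therefore means the deposited label throughout. Mesenchymal markers were present in every library, and so were those of other cells. Of 14 lung mesenchyme markers, 12 were lower and 2 higher in *WT* bleo than in *WT* vehicle (median log2 fold change -1.11), and 8 lower and 5 higher in *Pear1*-/- bleo than in *Pear1*-/- vehicle (median -0.90). Their summed normalized counts ranged from 124591 to 143858 in the vehicle libraries, from 83552 to 84282 in *WT* bleo and from 223838 to 231915 in *Pear1*-/- bleo, where *Col1a1* and *Col1a2* made up 90.0% of the sum. Of 12 leukocyte markers, 8 were higher and 3 lower in *WT* bleo, and 6 higher and 4 lower in *Pear1*-/- bleo, each against its vehicle group, with *Cd3e*, *Nkg7* and *S100a8* lower in both. Their sum ranged from 21143 to 34201 in the vehicle libraries, from 108546 to 110550 in *WT* bleo and from 49644 to 50797 in *Pear1*-/- bleo, and *Lyz2* made up 68.3% and 68.2% of it in the bleo groups. Of 7 epithelial markers, 5 were lower in *WT* bleo, while *Epcam* and *Cdh1* were higher, and 6 were lower in *Pear1*-/- bleo. Their sum, of which *Sftpc* and *Scgb1a1* made up 83.0% to 90.8% in each group, ranged from 38355 to 61543 in the vehicle libraries, from 13576 to 13832 in *WT* bleo and from 5911 to 6026 in *Pear1*-/- bleo. No marker of these lists was at 0 in any library. In bulk RNA, fewer cells of a type and less RNA per cell cannot be told apart.

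The lung cells expressed the anterior and central part of the Hoxa and Hoxb clusters. Of 36 members, 15 passed the filter on low counts, among them *Hoxa2* to *Hoxa7*, *Hoxb2* to *Hoxb8* and *Hoxc4*. By paralog group, these were 5 of 7 anterior members (groups 1 to 3), 10 of 15 central members (groups 4 to 8) and 0 of 14 posterior members (groups 9 to 13). By cluster, 7 of 11 Hoxa genes, 7 of 10 Hoxb genes, 1 of 8 Hoxc genes and 0 of 7 Hoxd genes were tested. The other 21 members had between 1 and 45 counts each over the 12 libraries together, and 10 of them never exceeded 3 counts in a library. The filter asked for about 10 counts at the median library size in at least 3 libraries. *Hoxb3* reached that level in 3 libraries and *Hoxc4* in 4, all of them vehicle, and *Hoxb8* reached it in 4, all of them bleo. These 3 genes were tested only because of the condition in which they are high, so their differences between bleo and vehicle are given as values and not as results of the test, although the counts of genes called include them.

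**Figure D1:**
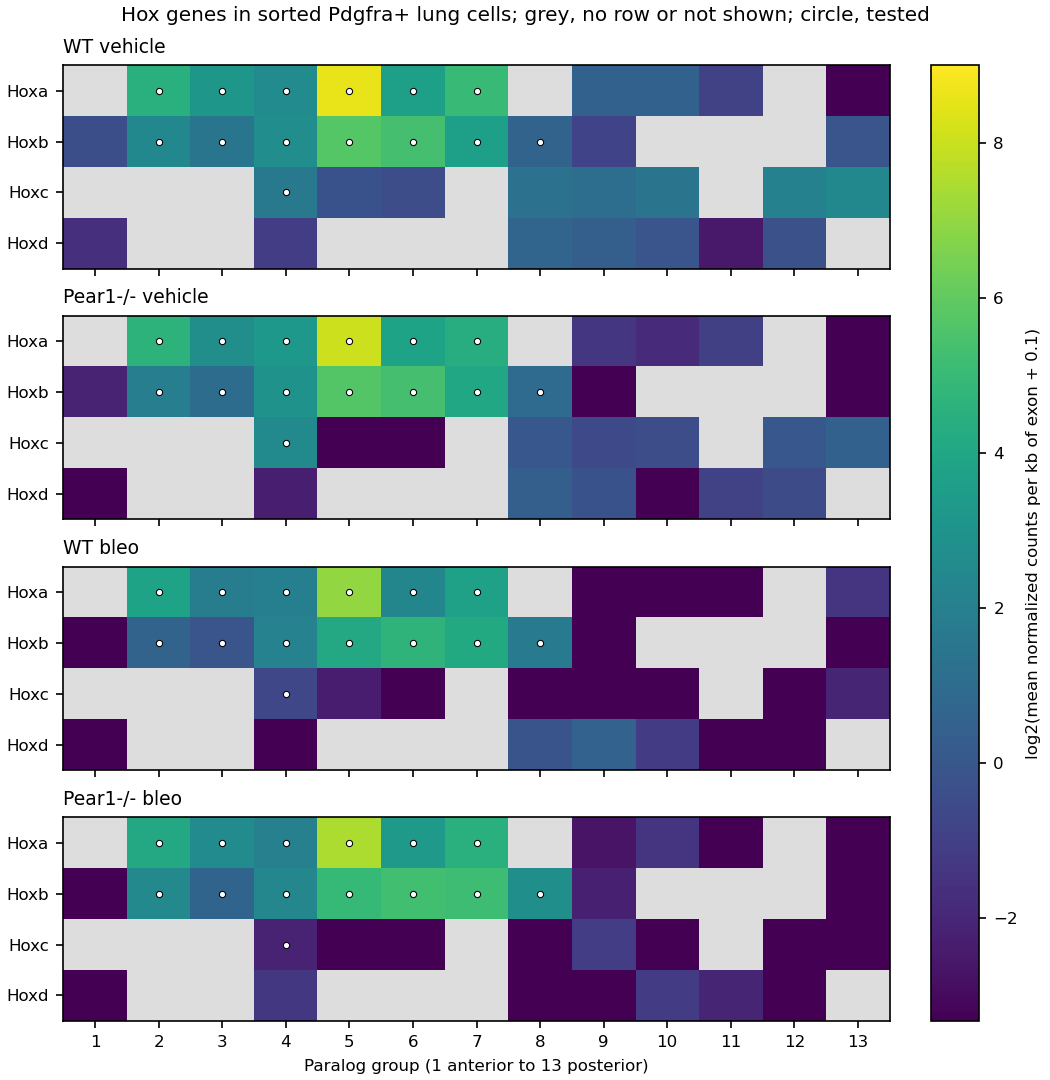
Mean level of each Hox gene in the 4 groups, as log2 of normalized counts per kb of exon plus 0.1 (colour), by cluster (rows) and paralog group (columns). Grey squares have no row in the table or are not shown, and circles mark tested members. The brightest square in every group is *Hoxa5*, and the posterior columns are dark, least so in *WT* vehicle.

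Levels were compared between genes as normalized counts per kb of exon. *Hoxa5* was the most abundant member, with 389.8 ± 83.4 normalized counts per kb in *WT* vehicle (SD, n = 3), and it held 42.6% to 58.1% of all Hox counts in each library. *Hoxb5* followed at 54.0 ± 2.82, *Hoxb6*, which like its neighbours patterns the trunk, at 41.8 ± 3.64 and *Hoxa7*, a trunk gene of the Hoxa cluster, at 31.9 ± 7.22. The next members in *WT* vehicle were *Hoxa2* at 22.3 ± 3.5, a gene of the hindbrain and second pharyngeal arch, *Hoxb7* at 12.4 ± 3.41 and *Hoxa6* at 12.1 ± 3.0. *Hoxa5* stood clear of the rest, whereas *Hoxb7* and *Hoxa6* lay within their spread of each other. In both bleo groups the order of the means below *Hoxa5* differed from that in *WT* vehicle. In *Pear1*-/- bleo, *Hoxb6* was at 39.1 ± 6.61, *Hoxb7* at 35.9 ± 4.59, *Hoxb5* at 30.5 ± 1.73 and *Hoxa7* at 22.9 normalized counts per kb. In *WT* bleo, *Hoxb6* was at 26.1 ± 6.05, *Hoxb7* at 17.8 ± 1.77 and *Hoxb5* at 17.0 ± 3.89. *Hoxb6* and *Hoxb7* lay within their spread of each other in *Pear1*-/- bleo, as did *Hoxb7* and *Hoxb5* in *WT* bleo.

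Between *WT* bleo and *WT* vehicle, 10 of 15 tested Hox genes were lower and 0 higher (adjusted p under 0.05 in edgeR's quasi-likelihood test). At an unadjusted p under 0.05, 11 were lower and 1 higher, beside 12277 of 17418 genes in either direction. Over all 17418 genes tested, 36.6% were lower and 31.4% higher. The lower members included *Hoxa2*, *Hoxa3* and *Hoxb2* of the anterior genes and *Hoxa5*, *Hoxa7*, *Hoxb5* and *Hoxb6* of the central ones. The count also holds *Hoxb3* and *Hoxc4*, which passed the filter through vehicle libraries only. Of them, 8 also fell by more than 2-fold, which 33.9% of all genes did in either direction. The median log2 fold change of the 15 members was -1.26, and that of all genes -0.07.

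*Hoxa5* had 816, 551 and 828 normalized counts in *WT* vehicle and 232, 239.7 and 253 in *WT* bleo. All *WT* bleo libraries lay below all *WT* vehicle libraries, although *WT* vehicle replicate 2 was well below the other two. The log2 fold change was -1.58 ± 0.13 (SE, adjusted p = 3.44e-08), and -1.69 without that replicate. *Hoxb5*, its paralog, had 142, 157 and 152 normalized counts in *WT* vehicle against 39.5, 42.8 and 59.7 in *WT* bleo. The groups were again apart, here with the vehicle libraries close together, and the log2 fold change of -1.66 ± 0.15 (adjusted p = 1.72e-07) was about as large as that of *Hoxa5*.

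*Hoxa7* (ENSMUSG00000038236, chr6:52214491-52221854, minus strand) had 115, 76.1 and 83.6 normalized counts in *WT* vehicle and 35.8, 35.7 and 41.5 in *WT* bleo, a log2 fold change of -1.26 ± 0.19 (adjusted p = 3.79e-05). *Hoxa3* (ENSMUSG00000079560, chr6:52169062-52213336, minus strand), which patterns structures of the neck such as the thymus and parathyroid, had 63.1, 47.7 and 53.8 against 25.7, 29.6 and 11.1, a log2 fold change of -1.28 ± 0.29 (adjusted p = 0.00127). Neither gene's groups overlapped. *Hoxb2* (ENSMUSG00000075588, chr11:96350525-96354012, plus strand), a hindbrain gene, was low throughout, with 13.3, 18.3 and 24.0 normalized counts in *WT* vehicle and 2.76, 7.14 and 5.06 in *WT* bleo. Its groups did not overlap, and the fitted log2 fold change was -1.88 ± 0.42 (adjusted p = 0.00107). *Hoxb6* (ENSMUSG00000000690, chr11:96292476-96301569, plus strand) fell less, from 89.7, 81.2 and 75.6 to 45.9, 42.8 and 64.8 normalized counts. Its log2 fold change was -0.67 ± 0.18 (adjusted p = 0.00406).

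*Hoxb7* (ENSMUSG00000038721, chr11:96286623-96290162, plus strand) went the other way. It had 24.3, 19.3 and 13.7 normalized counts in *WT* vehicle and 29.4, 28.6 and 24.3 in *WT* bleo, so that the lowest bleo library was level with the highest vehicle library to the digits given. The difference of 0.54 ± 0.26 did not pass (adjusted p = 0.0742). Its neighbour *Hoxb8* had 2.03 to 5.72 normalized counts in *WT* vehicle and 7.35 to 10.1 in *WT* bleo. *Hoxb7* and *Hoxb8* were the only tested members with a positive log2 fold change here, and *Hoxb7* passed as higher in limma on the deposited values and without *WT* vehicle replicate 1.

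*Hoxc4* (ENSMUSG00000075394, chr15:103018934-103036852, plus strand), the only tested Hoxc gene, had 3, 16 and 3 counts in *WT* vehicle and 1, 1 and 2 in *WT* bleo. Most of the vehicle counts came from replicate 2, and the ratio of summed counts, scaled by size factors, was 0.16 (95% exact counting interval 0.04 to 0.47). No change is read from it. *Hoxb3* had 8.12 to 13.3 normalized counts in *WT* vehicle and 1.01 to 8.16 in *WT* bleo, so that the groups overlapped. *Hoxa2* was lower by a log2 difference of -0.63 (adjusted p = 0.0383), and the call was lost when any of 7 single libraries was left out, *WT* vehicle replicate 2 among them (-0.42, adjusted p = 0.163).

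Between *Pear1*-/- bleo and *Pear1*-/- vehicle, 6 of 15 tested Hox genes passed, 2 higher and 4 lower. Over all genes, 28.9% were higher and 33.4% lower, and 27.8% passed with a fold change above 2, as did 3 of the 15 members. *Hoxb7* and *Hoxb8* were the higher members, and *Hoxa5*, *Hoxb5* and *Hoxc4* were among the lower ones. *Hoxb8* passed the filter through bleo libraries only and *Hoxc4* through vehicle libraries only. Both are in these counts, also among the 3 past a 2-fold change, but their differences are values and not results of the test. The median log2 fold change of the members was -0.52, beside -0.05 for all genes.

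*Hoxb7* had 27.5, 22.3 and 28.4 normalized counts in *Pear1*-/- vehicle and 63.0, 49.0 and 54.3 in *Pear1*-/- bleo, a rise of 1.1 ± 0.22 (log2, adjusted p = 0.000502). *Hoxb8* (ENSMUSG00000056648, chr11:96281905-96285315, plus strand) had 1.86 to 7.58 normalized counts in *Pear1*-/- vehicle and 13.3 to 23.2 in *Pear1*-/- bleo. In neither of these neighbours, at the posterior end of the expressed stretch of Hoxb, did the groups overlap. *Hoxa5* had 489, 516 and 503 normalized counts in *Pear1*-/- vehicle and 322, 334 and 357 in *Pear1*-/- bleo, a log2 fold change of -0.57 ± 0.12 (adjusted p = 0.000949). *Hoxb5* had 129.7, 137 and 160.4 against 90.6, 82.5 and 82.0, a log2 fold change of -0.74 ± 0.14 (adjusted p = 0.000304). For both paralogs of group 5 the bleo libraries lay below all vehicle libraries.

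*Hoxa7* had 54.0, 69.6 and 53.5 normalized counts in *Pear1*-/- vehicle and 59.5, 73.9 and 63.9 in *Pear1*-/- bleo, and *Hoxa3* had 39.8, 45.5 and 37.1 against 25.8, 39.5 and 45.8. *Hoxb2* had 9.47, 13 and 16.4 against 21.3, 20.6 and 16.2, and *Hoxb6* 83.3, 86.3 and 75.3 against 64.8, 74.8 and 90.6. The groups overlapped for all 4 genes, whose log2 differences were 0.16 ± 0.18, -0.14 ± 0.28, 0.59 ± 0.36 and -0.09 ± 0.17 and did not pass. *Hoxc4* had 12, 19 and 14 counts in *Pear1*-/- vehicle but 0, 0 and 1 in *Pear1*-/- bleo, a ratio of summed counts of 0.0203 (95% exact counting interval 0.000503 to 0.119). The gene passed the filter through the *Pear1*-/- vehicle libraries and 1 *WT* vehicle library, so the difference is a description.

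**Figure D2:**
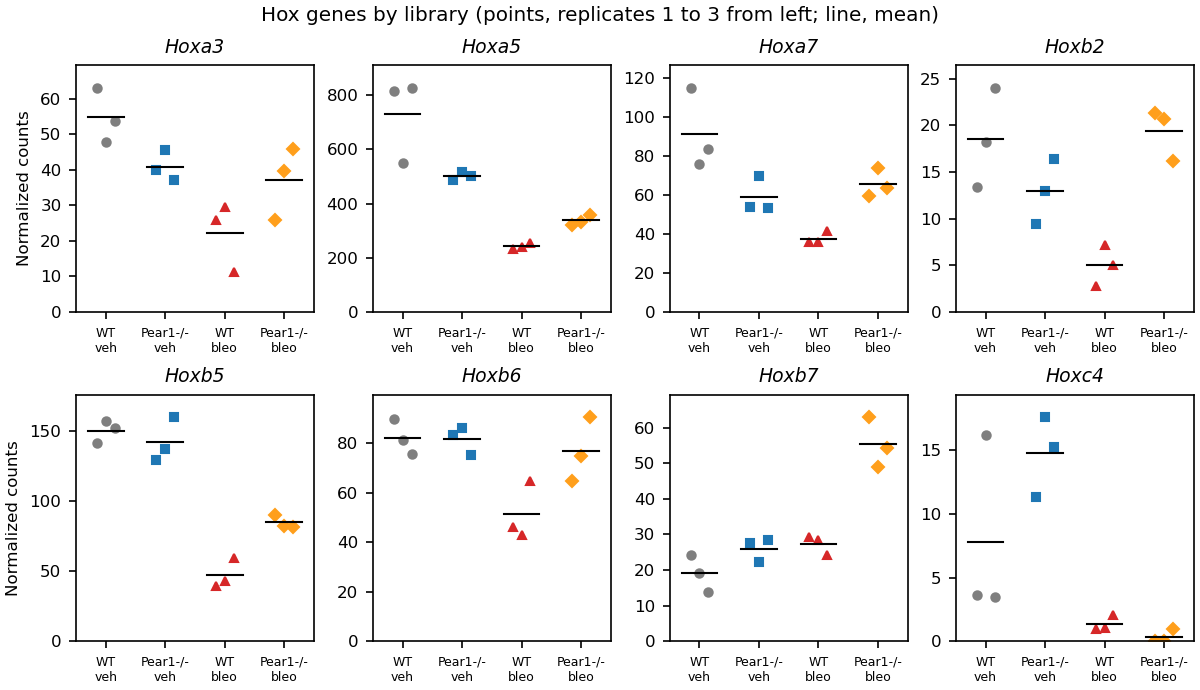
Normalized counts of 8 Hox genes in each library, by group. Points are replicates 1 to 3 from left to right and lines are group means. *Hoxa5* and *Hoxb5* are lowest in *WT* bleo and intermediate in *Pear1*-/- bleo, *Hoxb7* is highest in *Pear1*-/- bleo, and the second *WT* vehicle point stands apart for *Hoxa5* and *Hoxc4*.

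Between *Pear1*-/- bleo and *WT* bleo, 7 of 15 tested Hox genes were higher and 0 lower, beside 22.1% and 23.9% of all genes. At an unadjusted p under 0.05, 9 were higher and 0 lower, beside 9200 of 17418 genes in either direction. The higher members included *Hoxa5*, *Hoxa7*, *Hoxb2*, *Hoxb5*, *Hoxb6* and *Hoxb7*, and 14 of the 15 members had a positive log2 fold change, with a median of 0.77 against -0.01 for all genes. Past a fold change of 2 as well were 2 members, beside 15% of all genes. *Hoxb2* differed most, by 1.94 ± 0.41 (log2, adjusted p = 0.00125), with 16.2 to 21.3 normalized counts in *Pear1*-/- bleo and 2.76 to 7.14 in *WT* bleo.

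Among the abundant members, *Hoxb7* differed by 1.0 ± 0.22 (adjusted p = 0.00151), *Hoxb5* by 0.84 ± 0.16 (adjusted p = 0.000524), *Hoxa7* by 0.79 ± 0.20 (adjusted p = 0.00392) and *Hoxa5* by 0.47 ± 0.13 (adjusted p = 0.0077). In all 4 the *Pear1*-/- bleo libraries lay above every *WT* bleo library. *Hoxb6* differed by 0.57 ± 0.18 (adjusted p = 0.0161), and its lowest *Pear1*-/- bleo library was level with its highest *WT* bleo library to the digits given. Its call was lost without *WT* bleo replicate 1 (0.48, adjusted p = 0.0801), *WT* bleo replicate 2 (0.45, adjusted p = 0.0898) or *Pear1*-/- bleo replicate 3 (0.43, adjusted p = 0.0964). The remaining tested members had 0.00 (*Hoxa4*) to 1.04 (*Hoxb8*), apart from *Hoxc4*, which was at 2 counts or fewer in every bleo library.

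**Figure D3:**
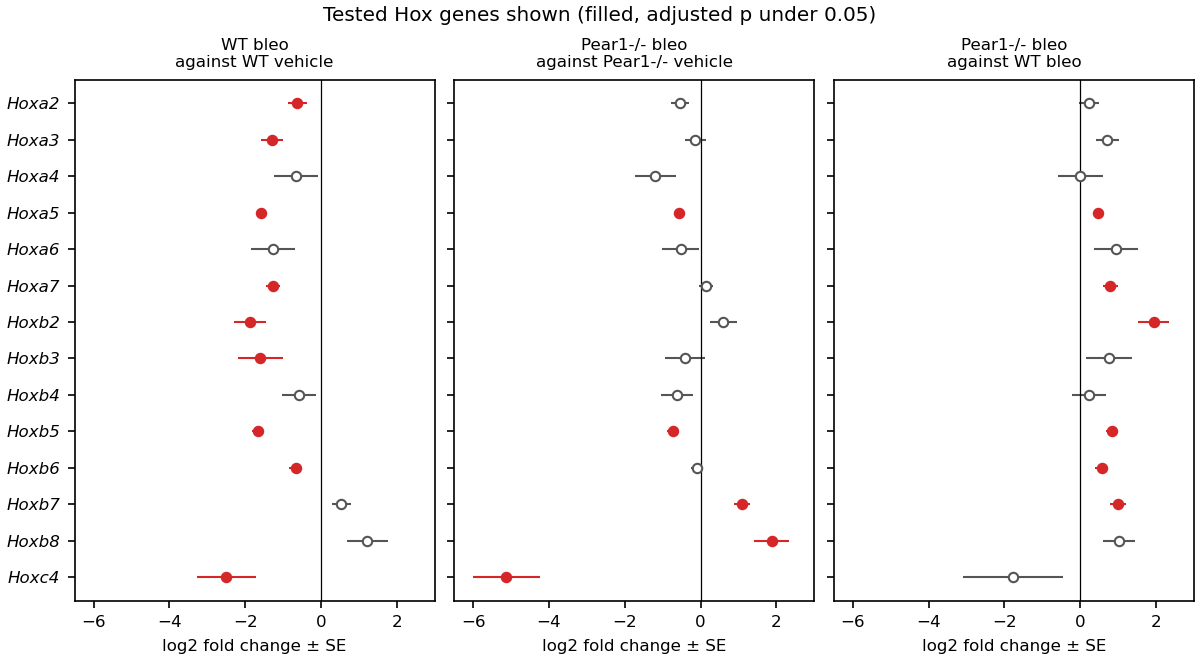
Log2 fold change with its standard error for tested Hox genes in the comparison of bleo with vehicle in each genotype and of the bleo groups with each other. Filled red points passed at an adjusted p under 0.05. In *WT* all red points lie left of 0, and between the bleo groups all red points lie right of 0. In *Pear1*-/-, *Hoxb7* and *Hoxb8* lie right of 0, the latter past the filter through bleo libraries only.

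The change after bleo was compared between genotypes by the interaction term, which was positive in 5 members, *Hoxa3*, *Hoxa5*, *Hoxa7*, *Hoxb2* and *Hoxb5*, and negative in 0. Over all genes 17.9% were positive and 19.1% negative, and 15.7% also exceeded a 2-fold difference, as did 4 of the members. The interaction was 2.47 ± 0.55 for *Hoxb2* (log2, adjusted p = 0.0028), 1.42 ± 0.27 for *Hoxa7* (adjusted p = 0.000784), 1.01 ± 0.18 for *Hoxa5* (adjusted p = 0.000404) and 0.92 ± 0.21 for *Hoxb5* (adjusted p = 0.00291). For *Hoxa5* and *Hoxb5* it set a larger fall in *WT* against a smaller fall in *Pear1*-/-. *Hoxa3*, at 1.14 ± 0.41 (adjusted p = 0.0382), lost the call when any of 9 single libraries was left out, with values from 0.77 without *WT* bleo replicate 3 to 1.21 without *WT* bleo replicate 1. For *Hoxb7* the interaction was 0.56 ± 0.34 (adjusted p = 0.216), so that a rise past the threshold in *Pear1*-/- and not in *WT* was not itself a difference past the threshold. The comparisons share libraries, and their values are given side by side only.

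Between *Pear1*-/- vehicle and *WT* vehicle, 1 of 15 members passed, *Hoxa5*, with a log2 fold change of -0.55 ± 0.12 (adjusted p = 0.0388). Over all genes 3.65% were lower and 0.855% higher, and 2.36% passed with a fold change above 2, as did 0 members. *Hoxa5* had 489 to 516 normalized counts in *Pear1*-/- vehicle, below the 551 of *WT* vehicle replicate 2 and the 816 and 828 of the others. The call was lost when any single library other than *WT* vehicle replicate 2 was left out, in either condition, with values between -0.51 and -0.44. In each of those 11 fits 0 genes of all tested passed between the vehicle groups. Without *WT* vehicle replicate 2, 17 members were tested and 7 passed, beside 55.2% of all genes tested in that fit, and *Hoxa5* then stood at -0.64 (adjusted p = 8.11e-10) and *Hoxa7* at -0.67 (adjusted p = 0.00163). *Hoxb4* was then higher (1.0, adjusted p = 0.0378). *Hoxc13* and *Hoxa9*, also among the 7, were too low for the filter with all 12 libraries and passed it here through *WT* vehicle replicates 1 and 3, where they are highest, and *Hoxc4* through *Pear1*-/- vehicle, so no difference is read from them. *Hoxb4* had 28.4 normalized counts in *WT* vehicle replicate 2 against 10.9 and 10.3 in the other replicates, and 13 to 26.5 in *Pear1*-/- vehicle.

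The members too low to test were seen mainly in vehicle libraries. The 21 genes together had 64, 29 and 83 counts in *WT* vehicle, 26, 27 and 14 in *Pear1*-/- vehicle, 9, 9 and 4 in *WT* bleo and 6, 3 and 6 in *Pear1*-/- bleo. *WT* vehicle replicates 1 and 3 had the most, and replicate 2 was near the *Pear1*-/- vehicle libraries. *Hoxc13* (ENSMUSG00000001655), known from hair follicles, had 9, 3 and 22 counts in *WT* vehicle and 4, 3 and 3 in *Pear1*-/- vehicle, and *Hoxc8* (ENSMUSG00000001657), a thoracic gene, had 5, 3 and 10 and 1, 5 and 2. In bleo, *Hoxc13* had 1 count in 1 library and *Hoxc8* none, where 3 counts was taken as the floor of detection, so that absence cannot be read from these values.

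Of the Hoxd genes, *Hoxd8* (ENSMUSG00000027102) had 6, 4 and 1 counts in *WT* vehicle, 3, 2 and 5 in *Pear1*-/- vehicle, 4, 2 and 1 in *WT* bleo and 0 in all 3 *Pear1*-/- bleo libraries. *Hoxd9* (ENSMUSG00000043342) had 2, 2 and 3, then 1, 3 and 1, then 3, 4 and 2, and again 0 in *Pear1*-/- bleo. *Hoxd12* (ENSMUSG00000001823), a limb gene, had 1, 2 and 2 and 2, 3 and 0 in the vehicle groups and 0 in all bleo libraries. Only *Hoxd8* and *Hoxd9* of these exceeded 3 counts in any library, and no change was read from them.

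The Hox sum and *Pdgfra* ranked the 4 groups in the same order by their means. The 15 tested members summed to 1363, 1089.8 and 1330.3 normalized counts in *WT* vehicle, 974, 1017 and 1037 in *Pear1*-/- vehicle, 478, 498 and 518 in *WT* bleo and 733, 779.6 and 808 in *Pear1*-/- bleo. *Pdgfra*, the sorted marker, fell after bleo with log2 fold changes of -1.74 ± 0.07 in *WT* and -0.80 ± 0.07 in *Pear1*-/-. Per 1000 counts of *Pdgfra* the Hox sum was 259.8 to 284 in *WT* vehicle, 234 to 251 in *Pear1*-/- vehicle, 354 to 372 in *WT* bleo and 305 to 337 in *Pear1*-/- bleo, higher in every bleo library than in any vehicle library. *Hoxa5* per 1000 *Pdgfra* was 131 to 176, 117 to 123, 172 to 182 and 134 to 149 in these groups, and *Hoxb5* 29.5 to 37.5, 31.1 to 38.9, 29.3 to 42.8 and 34.1 to 37.7, the latter overlapping in all groups. *Hoxb6* per 1000 *Pdgfra* was 16.1 to 20.5 in the vehicle libraries and 27.0 to 46.5 in the bleo libraries, and *Hoxa7* 13 to 24.0 and 24.8 to 31.2. For these central genes every bleo library lay above every vehicle library.

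Other mesenchymal genes gave other ratios. Per 1000 counts of *Tcf21*, a lipofibroblast regulator of the lung, the Hox sum was 1402 to 1426 in *WT* vehicle, 1175 to 1348 in *Pear1*-/- vehicle, 1566 to 1766 in *WT* bleo and 2266 to 2879 in *Pear1*-/- bleo. Per 1000 counts of *Tbx4*, a lung mesenchyme regulator, it was 1678 to 2201, 1439 to 1617, 1135 to 1434 and 917 to 1060.0. The direction after bleo therefore differed with the gene chosen as reference. *Ptprc*, the leukocyte antigen CD45, had 7542 to 7727 normalized counts in *WT* bleo and 3010.0 to 4016 in the other 9 libraries. It was thus highest where the Hox sum was lowest. The sum of the 12 leukocyte markers was also highest in *WT* bleo, and was higher in *Pear1*-/- bleo (49644 to 50797) than in *Pear1*-/- vehicle (31177 to 34201), a comparison in which *Ptprc* itself did not pass (-0.18). The part of leukocyte RNA and of *Pdgfra* levels in the Hox values was not tested.

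**Figure D4:**
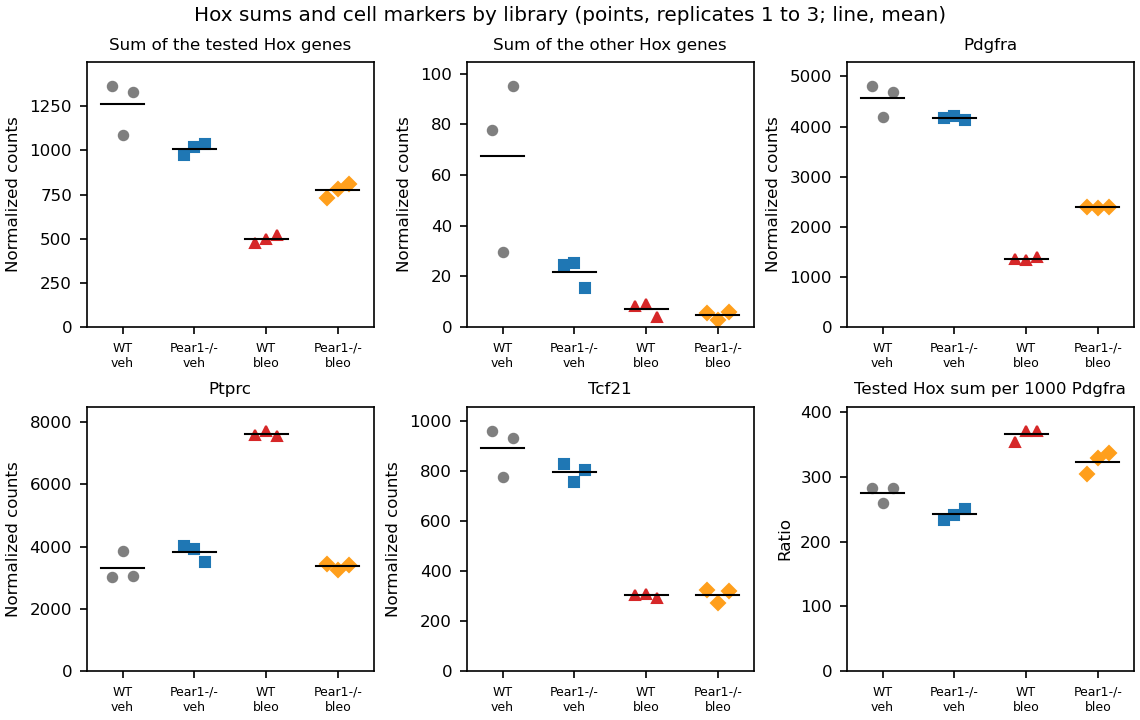
Summed normalized counts of the tested Hox genes and of the other Hox genes, normalized counts of *Pdgfra*, *Ptprc* and *Tcf21*, and the tested Hox sum per 1000 counts of *Pdgfra*, by library. Points are replicates 1 to 3 and lines are group means. The tested sum follows *Pdgfra* in order, with *WT* bleo lowest at 478 to 518, while *Ptprc* is highest there.

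The TALE cofactors, which bind DNA beside Hox proteins, were all tested. Of 9, 3 were higher and 5 lower in *WT* bleo than in *WT* vehicle, with a median of -0.87, where 31.4% of all genes were higher and 36.6% lower. *Meis1* had 796, 785 and 782 normalized counts in *WT* vehicle and 358, 359 and 335 in *WT* bleo, a log2 fold change of -1.16 ± 0.07. *Meis2* and *Pknox2* had log2 fold changes of -1.64 and -1.67, whereas *Pbx2*, *Pbx3* and *Meis3* rose by 1.90, 0.75 and 0.68. In *Pear1*-/- bleo against *Pear1*-/- vehicle (28.9% of all genes higher, 33.4% lower), 2 rose (*Pbx2* and *Meis3*, by 0.59 and 0.50) and 4 fell (among them *Meis1*, *Meis2* and *Pknox2*, at -0.50, -0.54 and -0.93). Between the bleo groups (22.1% and 23.9%), 5 were higher in *Pear1*-/- bleo (among them *Meis1*, *Meis2*, *Pknox1* and *Pknox2*, by 0.26 to 1.01) and 2 lower (*Pbx2* at -0.96 and *Pbx3* at -0.39). Between the vehicle groups 0 of 9 passed in edgeR's test (0.855% of all genes higher, 3.65% lower), with 2 at an unadjusted p under 0.05, as were 5508 of 17418 genes. *Pbx4*, also lower in *WT* bleo (-0.87, adjusted p = 0.0447), had 42.4 and 30.9 normalized counts in *WT* vehicle replicates 1 and 3 and 7.74 to 16.5 in the other 10 libraries.

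Of 14 Polycomb and Trithorax regulators, all tested, 8 were higher and 4 lower in *WT* bleo than in *WT* vehicle, beside the same 31.4% and 36.6% of all genes. The Polycomb subunits *Ezh2*, *Eed*, *Suz12* and *Bmi1* rose by 0.87, 0.45, 1.03 and 0.98 on the log2 scale, and *Ezh1*, *Cbx7* and *Rnf2* fell, with log2 fold changes of -0.78, -0.82 and -0.24. *Kmt2a*, the methyltransferase that keeps Hox genes active, rose by 0.41, and the demethylases *Kdm6a* and *Kdm6b*, which remove the Polycomb mark, by 0.41 and 0.34. In *Pear1*-/- bleo against *Pear1*-/- vehicle, 3 rose and 5 fell, beside 28.9% and 33.4% of all genes, and *Kmt2a*, *Kdm6a* and *Kdm6b* were among the latter at -0.32, -0.31 and -0.56. Between the bleo groups, where 22.1% of all genes were higher and 23.9% lower, 1 was higher (*Men1*, 0.51) and 6 lower in *Pear1*-/- bleo (*Suz12*, *Bmi1*, *Kmt2a*, *Kdm6a*, *Kdm6b* and *Dot1l*, at between -0.87 and -0.36). The vehicle groups differed in 0 of 14 in edgeR's test, with 2 at an unadjusted p under 0.05, beside the same 5508 of 17418 genes. *Ptprc* was also highest in *WT* bleo, and the part of leukocytes in these values was not tested.

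Of 12 noncoding transcripts of the Hox clusters, 4 had enough counts, *Hoxaas2*, *Hoxaas3*, *Hotairm1* and *Hoxb5os*. In *WT* bleo against *WT* vehicle 0 of 4 passed in edgeR's test, where 31.4% of all genes were higher and 36.6% lower, with 1 at an unadjusted p under 0.05, as were 12277 of 17418 genes. In turn, 1 of the 4 was higher in *Pear1*-/- bleo than in *Pear1*-/- vehicle (28.9% of all genes), and 2 were higher than in *WT* bleo (22.1%). *Hoxaas3* had 3.79 to 13 normalized counts in *Pear1*-/- vehicle and 21.3, 23.2 and 30.5 in *Pear1*-/- bleo, a log2 rise of 1.66 ± 0.40 (adjusted p = 0.00233), and was higher by 1.14 ± 0.38 (adjusted p = 0.024) than in *WT* bleo. *Hoxaas2* was higher by 1.73 ± 0.46 (adjusted p = 0.00631) in *Pear1*-/- bleo than in *WT* bleo. *Hotair*, transcribed within Hoxc, had 17, 1 and 10 counts in *WT* vehicle and 0 in the other 9 libraries, and *Hottip*, at the posterior end of Hoxa, had 7, 0 and 4 counts there and 0 elsewhere, so that replicates 1 and 3 again differed from replicate 2.

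The cDNA kit does not mark strand, so reads from a Hox gene and from an overlapping antisense transcript cannot be told apart where their exons coincide. In GENCODE M21, 0 exon bases of *Hoxa5*, *Hoxb6*, *Hoxb7*, *Hoxb8* and *Hoxc4* are shared with another annotated gene, and 3.59% of those of *Hoxb5* are shared with *Hoxb5os*. The shares are larger for *Hoxa7* (20.4%, with *Hoxaas3*), *Hoxa3* (27.1%, with *Hoxaas2* and *Hoxaas3* among others), *Hoxb2* (27.3%) and *Hoxb3* (52.9%), the latter both with *Hoxb3os*. *Hoxaas3* itself had an interaction of 1.80 ± 0.59 (adjusted p = 0.0268). How reads in shared exons were counted is not given in the sources used here, and their part in the values of *Hoxa3*, *Hoxa7* and *Hoxb2* was not tested.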

How the data were processed

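Pdgfra+ cells sorted from mouse lung were profiled by RNA-seq. Per the labels and the study's methods, full-length cDNA was made with SMART-Seq v4 and paired reads were aligned to GRCm38 (mm10) with HISAT2. The counting program, its strand setting and the annotation release are not given in the sources used here. The authors deposited raw counts per gene, and a second table of normalized signal that equals count divided by a DESeq2 size factor per library. Counts were tested with edgeR 4.0.16 (R 4.3.3) by glmQLFit and glmQLFTest, two-sided, over all 12 libraries with one mean per group, TMM scaling, filterByExpr (17418 genes kept) and Benjamini-Hochberg adjustment over those genes. A standard error is the log2 fold change divided by the root of the F statistic. The fit was tested on simulated data, where 87% of genes changed by a log2 of 1 between *WT* bleo and *WT* vehicle were recovered among 17418 genes. Of the calls made there, 7.46% were false. The changed genes had means above 20 normalized counts and no library was made to stand apart. That share therefore does not cover lower genes such as *Hoxb2*, or a library like *WT* vehicle replicate 2. The methods of the study use limma, which is run here on log2 of the deposited values, with values below 1 set to 1, as an alternative, beside DESeq2 1.42.0. A floor of 3 counts covers counting error only. Exon lengths and overlaps are from GENCODE M21, and promoters from RefSeq.

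Values in all libraries were given for the 3 members of each cluster with the highest mean, for members past a fold change of 2 and an adjusted p under 0.05 with a mean of at least 20 normalized counts, and for members with an interaction past the threshold. Other members given with values, and *Tcf21*, *Tbx4*, *Hotair* and *Hottip*, fall outside this rule and were named after their values were seen. The members and lists were chosen with earlier results of these data known. Replicate numbers are shared between groups, but correlations of the deviations of same-numbered libraries lay between -0.16 and 0.10, and the numbers were not taken as pairs. Alternatives covered scaling, the low-count filter, the test, the libraries in the fit, the replicate block and leaving out each library. Some items are not reported here, and counts over members and lists include them.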

Additional observations from a re-analysis of the deposited data

Results flagged for a closer look

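A test of the interaction between genotype and bleo, which asks whether the log2 change after bleo differed between *Pear1*-/- and *WT*, passed (edgeR, adjusted p under 0.05) in 17.9% of all genes as positive and in 19.1% as negative. It passed in 5 of 15 tested Hox genes, in 5 of 14 chromatin regulators, in 1 of 4 tested noncoding transcripts and in TALE cofactors that included the 5 given here. Among the Hox genes it was 2.47 for *Hoxb2*, 1.01 for *Hoxa5*, 0.92 for *Hoxb5*, 1.42 for *Hoxa7* and 1.14 for *Hoxa3*. The antisense transcript *Hoxaas3* had 1.80. Among the cofactors it was -1.30 for *Pbx2*, -0.59 for *Pbx3*, 0.65 for *Meis1*, 1.1 for *Meis2* and 0.74 for *Pknox2*. Among the chromatin regulators it was -0.59 for *Bmi1*, -0.73 for *Kmt2a*, -0.71 for *Kdm6a*, -0.91 for *Kdm6b* and -0.28 for *Dot1l*.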

How the results depend on the processing

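Of 29 calls of single Hox genes, 20 stayed past the threshold under every alternative that gave a value, 9 lost it under at least 1 and 0 changed sign. The counts of Hox genes past the test stayed within 1.5 times the values given, except between *Pear1*-/- vehicle and *WT* vehicle. There the count of 1 became 2 with no filter on low counts, where 13.8% of all genes passed, 0 with limma on the deposited values, where 0.218% passed, and 0 with only the libraries of the groups compared, where 0 of 16422 genes passed. Leaving out each library gave 0 to 7 in that comparison, with 7 only without *WT* vehicle replicate 2, 10 to 12 for *WT* bleo against *WT* vehicle, 5 to 9 for *Pear1*-/- bleo against *Pear1*-/- vehicle, 6 to 9 for *Pear1*-/- bleo against *WT* bleo and 4 to 6 for the interaction. Of all genes, 0% to 55.2%, 63.6% to 76.4%, 50.3% to 68.0%, 31.5% to 49.2% and 26.1% to 46.4% passed in these fits, in the same order. With the replicate number as a block, the counts were 9, 5, 7, 1 and 4 for *WT* bleo, *Pear1*-/- bleo, the bleo groups, the vehicle groups and the interaction, beside 67.1%, 61.4%, 44.7%, 4.04% and 35.3% of all genes. Under that block *Hoxa2* in *WT* bleo and the interaction of *Hoxa3* were among the 3 calls that missed the threshold. With no filter, all 36 members were tested and 15 were lower in *WT* bleo, 7 of them members left out above. In that fit 47.7% of all genes passed in either direction, with a median log2 fold change of -1.48. *Hoxd8* and *Hoxd9* were lower and 8 members higher in *Pear1*-/- bleo than in *WT* bleo, where 19.2% of all genes passed. At this depth, members at or under 3 counts in most libraries carry no statement on a change. The median log2 fold change of the tested members kept its sign everywhere and moved by more than the spread between libraries in 3 fits. Without *WT* bleo replicate 3 it was -0.93 for *WT* bleo against *WT* vehicle and 0.49 for the bleo groups, and without *Pear1*-/- vehicle replicate 3 the median interaction was 0.87.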
